A study of Mus musculus with 5 samples.

Results

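Matricellular proteins are secreted proteins that sit in the extracellular matrix and pass signals to cells rather than bearing load. The messenger RNAs of 10 of them, periostin (Postn), osteonectin (Sparc), tenascin C (Tnc), the 5 thrombospondins (Thbs1, Thbs2, Thbs3, Thbs4 and Comp) and the CCN proteins Ccn1 and Ccn2, are described here in mouse hearts. They were chosen by symbol, and all 10 were found among the 17818 genes of the deposited table. All 10 were also among the 12734 genes with at least 1 CPM (counts of a gene scaled to the library's total) in at least 2 libraries, which were the genes tested.

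The hearts came from male mice that had undergone bone marrow transplantation, and polyadenylated RNA was sequenced. The 3 groups were Tet2+/- mice given oridonin (2 libraries), Tet2+/- mice given vector (2 libraries) and a WT control given vector (1 library). Hearts were collected 12 months after transplantation, with 2 months of treatment. Transplantation and the 2 months of oridonin or vector are thus shared by all groups. Sample titles read 1 month or 2 months, at odds with the labelled treatment time, and that number was used as the replicate number alone. The labels do not state age at transplantation, the dose of oridonin, or whether donor marrow or host carried the Tet2 allele. The TET2 protein oxidises methylated cytosines in DNA, and losing 1 copy in blood cells is used to model clonal hematopoiesis. Oridonin is a diterpenoid made by Rabdosia plants.

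In the adult heart most matricellular genes are quiet and are switched on again in fibroblasts during injury, pressure load and scarring. Periostin binds collagen and integrins and is the classical gene of activated cardiac fibroblasts. Thrombospondins bind calcium, integrins and growth factors, and thrombospondin 1 can release TGF-beta from its latent form. The CCN proteins, once named for connective tissue growth factor (Ccn2) and Cyr61 (Ccn1), are made by fibroblasts, endothelial cells and cardiomyocytes and are textbook targets of the YAP and TEAD transcription factors.

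Library totals ran from 14574823 to 15535778 counts, and a floor of 3 counts corresponded to between 0.193 and 0.206 CPM. The lowest member, Tnc, had 19 and 17 counts in the oridonin hearts, 32 and 40 in the vector hearts and about 11 in the WT heart, whereas Sparc had at least 3548 counts in any library. Cardiomyocyte markers were present in every library, with all 10 listed genes detected and a summed level between 61209 and 73971 CPM. Among them, Tet2 vector replicate 2 had the highest Myh7, at 320 CPM, and the lowest Myh6, at 12264 CPM. Genes of the mitochondrial genome held 28.2% to 30.2% of counts in oridonin hearts, 26.8% to 29.7% in vector hearts and 23.6% in the WT heart. Tet2 vector replicate 1 stood apart from the other 4 libraries in atrial transcripts. Of the atrial chamber list (9 of 9 genes in the table) it held a summed 2032 CPM, against 660 CPM in the other vector heart, 558 and 600 CPM in the oridonin hearts and 996 CPM in WT. It had 2739 counts of Myl7, an atrial myosin light chain, where every other library had at most 1 count. Sln was at 0 in oridonin replicate 1, vector replicate 2 and WT, Myl7 at 0 in WT and Bmp10 at 0 in oridonin replicate 2. The fold changes of the 10 genes and the counts of calls were therefore also computed without that library, while the related lists, marker sums, ratios and likeness below were computed with it. The WT values differ in kind from the others: in the Tet2 libraries nearly all values gave whole counts, in WT 33.5% did, so WT counts are approximate and may hold part of another library not analysed here. Tet2 itself had 9.43 and 17.9 CPM in the oridonin hearts, 19.2 and 7.76 CPM in the vector hearts and 15.6 CPM in the WT heart. The groups overlapped, with 1 heart of each Tet2 group above WT, and heart RNA of transplanted mice does not check the genotype of the marrow.

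The first comparison asked how hearts of mice labelled Tet2+/- differed from the WT heart under vector. Postn, Comp, Thbs1 and Tnc were 2.69 to 10.8 times as high in the Tet2 vector hearts, Sparc was 1.43 times as high, and Thbs2 and Ccn2 were lower, by 1.86-fold and 2.06-fold. These 7 of the 10 passed an unadjusted p under 0.05 in limma, where 9.59% of all genes tested did; 5 were higher (5.06% of all genes) and 2 lower (4.53%). Groups did not overlap for 9 of the 10 (67.7% of all genes), 7 with vector above WT (35.4%) and 2 below (32.3%), and with 1 WT library that share is high for any gene. A log2 fold change of 1 or more to either side was reached by 6 of the 10 and by 8.03% of all genes. The median log2 fold change was 0.97 over the 10 genes, beside 0.005 over all genes tested. With Benjamini-Hochberg adjustment over all genes, 0 of the 10 and 0 of 12734 genes passed a false discovery rate (FDR) of 0.05, where 1221 genes were under 0.05 unadjusted and voom also called 0. The smallest adjusted p among the 10 was 0.324, shared by Postn and Comp. Error rests on 2 residual degrees of freedom between replicate Tet2 hearts, and the single WT heart is taken to have that same spread.

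The second comparison asked how oridonin hearts differed from vector hearts among mice labelled Tet2+/-. Every one of the 10 genes had a log2 fold change below 0 with oridonin, and 6 of them, Postn, Comp, Thbs1, Thbs3, Thbs4 and Ccn2, passed an unadjusted p under 0.05 in limma, all lower. Over all genes tested, 2.6% passed that threshold, 1.93% lower and 0.668% higher. Oridonin and vector hearts did not overlap for 8 of the 10, all lower with oridonin, beside 26.1% of all genes (17.8% lower, 8.37% higher). A log2 fold change of 1 or more to either side was reached by 5 of the 10 and by 2.3% of all genes. Comp was 13.0-fold lower, Thbs4 6.41-fold, Postn 3.69-fold, and Thbs1 and Ccn2 2.43-fold each. The median log2 fold change was -1.09 over the 10 genes and -0.05 over all genes tested. By size of the unadjusted p, Comp stood at rank 6 and Postn at rank 7 of 12734. At an FDR of 0.05, limma called 0 of the 10 and 0 of 12734 genes (331 unadjusted, 0 in voom), and the smallest adjusted p among the 10 was 0.649. Both comparisons use the same 2 vector libraries, with opposite sign, so a vector value above WT and a lower value with oridonin are not independent.

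The third comparison set hearts of oridonin-treated mice labelled Tet2+/- against the WT heart. Ccn2 was 5.02-fold lower and Thbs2 2.11-fold lower, and these 2 genes passed an unadjusted p under 0.05, where 6.21% of all genes tested did and 3.53% did with a lower value. The same 2 reached a log2 fold change of 1 or more, beside 5.49% of all genes. Groups did not overlap for 9 of the 10 (73.6% of all genes), 4 with oridonin above WT (31.9%) and 5 below (41.7%). At an FDR of 0.05, limma called 0 of the 10 and 0 of 12734 genes (791 unadjusted, 0 in voom). The other 8 genes did not pass, and their 95% intervals for the difference were wide, as for Comp, from -1.81 to 1.26 on the log2 scale. The median log2 fold change was -0.27 over the 10 genes and -0.06 over all genes tested. Without vector replicate 1, the genes of the 10 under an unadjusted p of 0.05 numbered 7 for vector against WT, where 17.5% of all genes were under it, 5 for oridonin against vector (6.93% of all genes) and 3 for oridonin against WT (11.1%).

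**Figure D1:**
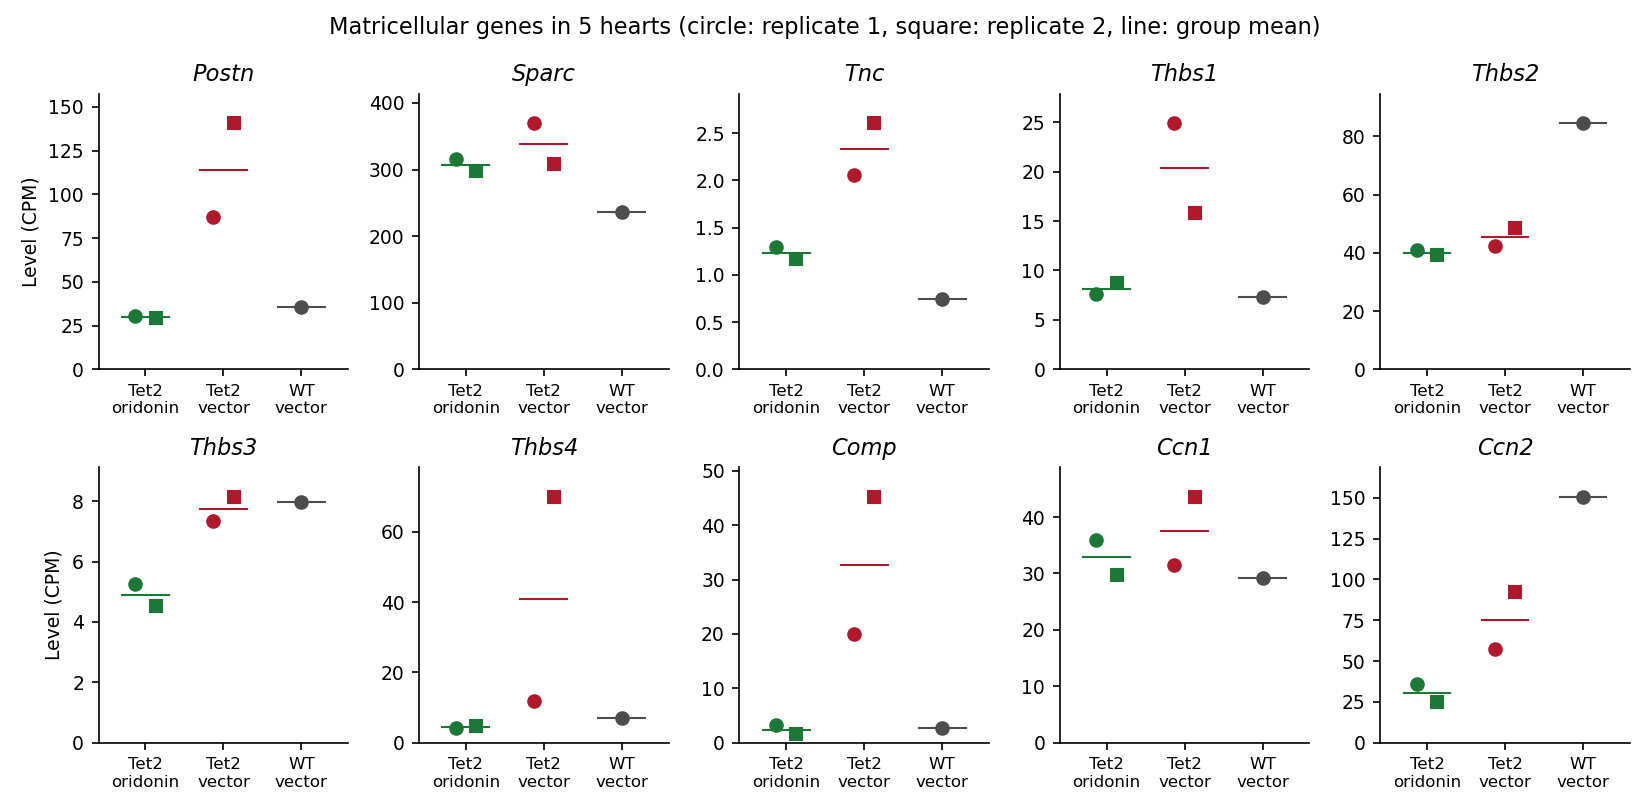
Level of each matricellular gene in CPM (vertical axis, from 0) in Tet2 oridonin, Tet2 vector and WT hearts; each point is 1 library and each line a group mean. Postn, Tnc, Thbs1, Thbs4 and Comp are highest in the 2 vector hearts, while Thbs2 and Ccn2 are highest in the WT heart.

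Sequence upstream of the transcription start is shown for 4 of the genes, a pair that was lower with oridonin (Postn and Thbs4) and a pair that differed little between oridonin and vector (Ccn1 and Thbs2). RefSeq promoter windows of build GRCm38.p6 were matched for 7 of the 10 genes, Postn, Sparc, Tnc, Thbs2, Thbs3, Thbs4 and Ccn1. The 250 bases before the start are printed 5′ to 3′ on the gene's strand, in lower case. Capitals mark matches on either strand to CATTCC (the core bound by TEAD factors), CAGAC (a SMAD element) and TATAAA (the TATA box). TGANTCA (AP-1) and the CArG box of serum response factor were searched as well.
Postn (chr3:54360857-54361106, plus strand): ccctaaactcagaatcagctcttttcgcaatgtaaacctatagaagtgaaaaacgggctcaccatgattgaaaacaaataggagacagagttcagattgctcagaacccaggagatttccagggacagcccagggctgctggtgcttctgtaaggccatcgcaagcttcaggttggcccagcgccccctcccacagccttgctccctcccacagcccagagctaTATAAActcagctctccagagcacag
Thbs4 (chr13:92794819-92795068, minus strand): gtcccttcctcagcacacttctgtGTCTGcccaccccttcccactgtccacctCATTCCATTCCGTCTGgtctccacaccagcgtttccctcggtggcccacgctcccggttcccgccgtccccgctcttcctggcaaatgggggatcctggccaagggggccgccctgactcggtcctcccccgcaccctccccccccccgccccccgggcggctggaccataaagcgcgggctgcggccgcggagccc
Ccn1 (chr3:145649986-145650235, minus strand): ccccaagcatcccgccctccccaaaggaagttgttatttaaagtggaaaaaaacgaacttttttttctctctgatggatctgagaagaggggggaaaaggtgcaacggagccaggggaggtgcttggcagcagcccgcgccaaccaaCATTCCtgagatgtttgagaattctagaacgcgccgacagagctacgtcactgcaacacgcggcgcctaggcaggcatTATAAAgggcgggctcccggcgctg
Thbs2 (chr17:14694263-14694512, minus strand): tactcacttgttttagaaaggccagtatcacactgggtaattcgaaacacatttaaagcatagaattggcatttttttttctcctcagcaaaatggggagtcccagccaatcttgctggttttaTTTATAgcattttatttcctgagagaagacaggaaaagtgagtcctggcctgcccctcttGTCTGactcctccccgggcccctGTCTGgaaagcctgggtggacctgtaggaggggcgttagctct
The Thbs4 window held a pair of overlapping CATTCC matches, 197 and 192 bases before the start, and CAGAC matches at 226 and 186 bases. Ccn1 held 1 CATTCC match at 103 bases and a TATAAA match at 25 bases. Postn held TATAAA at 26 bases and no other match in this window, while a second RefSeq window for Postn, at a start 1842 bases from the GENCODE gene start, held CAGAC at 191 bases, and Thbs2 held CAGAC at 66 and 43 bases and TATAAA at 126 bases. Of 32851 windows of the same length, 12.6% held CATTCC, 42.2% CAGAC, 12.4% TATAAA, 6.75% TGANTCA and 1.47% a CArG box. Neither of the last pair was among the letters of these 4 windows. CATTCC was thus present in 1 window of each pair, and all matches are descriptions of the letters alone.

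Periostin message separated the vector hearts from the rest. Postn (chromosome 3, 54361109 to 54391037, GRCm38, plus strand) measured 30.6 and 29.3 CPM with oridonin, 87.0 and 141 CPM in the vector hearts and 35.8 CPM in the WT heart. Both vector hearts lay above the other 3 libraries, and the oridonin pair lay within 0.06 log2 units of each other, just under WT. The log2 fold change was -1.88 for oridonin over vector (standard error 0.26; limma, adjusted p = 0.649) and 1.63 for vector over WT (standard error 0.32; limma, adjusted p = 0.324). Without vector replicate 1, the library with atrial transcripts, the difference with oridonin was -2.23, and without vector replicate 2 it was -1.54. Each of these fits rests on a single vector heart.

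Sparc (chromosome 11, 55394500 to 55423183, minus strand), which encodes a collagen chaperone of the matrix, reached 316 and 297 CPM with oridonin, 370 and 308 CPM with vector and 237 CPM in WT. All 4 Tet2 hearts were above WT, and the oridonin and vector hearts overlapped. For oridonin over vector the 95% interval of the log2 difference ran from -0.54 to 0.27. Tnc (chromosome 4, 63959785 to 64047015, minus strand), a glycoprotein re-expressed at sites of injury, was at 1.30 and 1.17 CPM with oridonin, 2.06 and 2.61 CPM with vector and 0.749 CPM in WT. Its 3 groups did not overlap, with vector highest and WT lowest, but the counts are few and the interval of the log2 difference between oridonin and vector, -1.98 to 0.20, includes 0. For vector over WT the log2 fold change of Tnc was 1.59 (standard error 0.55; limma, adjusted p = 0.482).

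Thrombospondins fall into trimers (Thbs1 and Thbs2), which inhibit blood vessel growth, and pentamers (Thbs3, Thbs4 and Comp), which lack the region that does so. Thbs1 (chromosome 2, 118111876 to 118127133, plus strand) was at 7.59 and 8.71 CPM with oridonin, 24.9 and 15.8 CPM with vector and 7.35 CPM in WT. The vector hearts were above all other libraries, and the oridonin hearts stood close to WT. The log2 fold change was -1.28 for oridonin over vector (standard error 0.29; limma, adjusted p = 1) and 1.43 for vector over WT (standard error 0.36; limma, adjusted p = 0.390). Without vector replicate 1 the difference with oridonin was -0.95.

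Thbs2 was highest in the WT heart. The gene (chromosome 17, 14665500 to 14694235, minus strand) was at 41.0 and 39.1 CPM with oridonin, 42.5 and 48.5 CPM with vector and 84.6 CPM in WT. All 4 Tet2 hearts lay below WT. For oridonin over vector the 95% interval of the log2 difference ran from -0.62 to 0.26. Against WT the log2 fold change was -1.08 with oridonin (standard error 0.22; limma, adjusted p = 0.583) and -0.90 with vector (standard error 0.22; limma, adjusted p = 0.383). Per kilobase of exon, the ratio of Thbs1 to Thbs2 was 0.213 and 0.257 in oridonin hearts, 0.676 and 0.376 in vector hearts and 0.100 in the WT heart. The 3 groups did not overlap in this ratio, which was lowest in WT.

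Among the pentamers, cartilage oligomeric matrix protein had the largest fold change of the 10 genes in both comparisons that use the vector hearts. Comp (chromosome 8, 70373558 to 70382066, plus strand), a protein of tendon and cartilage that organises collagen fibrils, was at 3.28 and 1.58 CPM with oridonin, 20.0 and 45.3 CPM with vector and 2.77 CPM in WT. In counts this was 48 and 23 with oridonin, 311 and 694 with vector and about 41 in WT. The vector hearts lay well above the rest, and WT lay between the 2 oridonin hearts. The log2 fold change was -3.70 for oridonin over vector (standard error 0.51; limma, adjusted p = 0.649) and 3.43 for vector over WT (standard error 0.63; limma, adjusted p = 0.324). The difference with oridonin was -4.29 without vector replicate 1 and -3.12 without vector replicate 2.

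Thbs4 showed the widest gap between replicates. This gene (chromosome 13, 92751590 to 92794818, minus strand), which is induced in loaded heart muscle in mice, had 4.24 and 4.73 CPM with oridonin, 11.9 and 70.0 CPM with vector and 7.18 CPM in WT. Replicate 1 minus replicate 2 was -0.16 log2 units for oridonin and -2.55 for vector. Both vector hearts were above WT and both oridonin hearts below it. The log2 fold change for oridonin over vector was -2.68 (standard error 0.77; limma, adjusted p = 1). It was -3.96 without vector replicate 1 and -1.40 without vector replicate 2, so vector replicate 2 carries much of the size. Each of these fits rests on a single vector heart. Over WT, vector hearts had a log2 fold change of 2.00 with an interval from -0.29 to 4.30, and of 0.73 without vector replicate 2.

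Thbs3 was low in every heart. The gene (chromosome 3, 89215180 to 89226837, plus strand), the least studied thrombospondin, was at 5.26 and 4.53 CPM with oridonin, 7.34 and 8.15 CPM with vector and 7.98 CPM in WT. Oridonin hearts were below the other 3, and WT lay between the vector hearts. The log2 fold change was -0.66 for oridonin over vector (standard error 0.26; limma, adjusted p = 1) and, for vector over WT, -0.04, a value that turned to 0.046 when mitochondrial counts were left out of the totals. Without vector replicate 1 the unadjusted p for oridonin over vector was 0.0609 and without vector replicate 2 it was 0.121 (limma). Its exons share 318 bases with Mtx1 on the opposite strand, and the labels do not say whether strand was kept. Mtx1 was at 12.9 and 11.6 CPM with oridonin, 10.6 and 10.04 CPM with vector and 11.5 CPM in WT, which is the opposite order for the Tet2 groups. Tnc, Thbs1 and Ccn2 likewise share 176, 208 and 665 exon bases with antisense genes.

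Summed per kilobase, the pentamers Thbs3, Thbs4 and Comp gave 3.49 and 2.91 CPM per kb in oridonin hearts, 11.9 and 38.2 in vector hearts and 4.77 in the WT heart. The trimers Thbs1 and Thbs2 gave 7.11 and 7.02 CPM per kb in oridonin hearts, 10.2 and 9.52 in vector hearts and 13.3 in WT. Per kilobase, pentamer message thus exceeded trimer message in the 2 vector hearts and in none of the other 3 libraries. In vector replicate 1 that order depended on division by exon length. In CPM, Thbs1 and Thbs2 were at 24.9 and 42.5 there, and Thbs3, Thbs4 and Comp at 7.34, 11.9 and 20.0. The ratio of Comp to Thbs4 per kilobase was not steady, at 0.858 and 0.370 with oridonin, 1.86 and 0.716 with vector and 0.427 in WT, so the pair varied among replicates as well as between groups.

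The CCN genes parted from each other. Ccn2 (chromosome 10, 24595442 to 24598683, plus strand), the connective tissue growth factor gene, was at 35.7 and 25.2 CPM with oridonin, 57.5 and 92.6 CPM with vector and 151 CPM in WT. The groups did not overlap and stood in the order WT, vector, oridonin. The log2 fold change was -1.28 for oridonin over vector (standard error 0.30; limma, adjusted p = 1), -1.05 for vector over WT (standard error 0.36; limma, adjusted p = 0.484) and -2.33 for oridonin over WT (standard error 0.36; limma, adjusted p = 0.539). Ranked by unadjusted p, the last of these stood at 10 of 12734. It ranged from -2.58 to -2.08 when single Tet2 libraries were left out.

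Ccn1 (chromosome 3, 145646976 to 145649981, minus strand), which encodes Cyr61, an integrin ligand of fibroblasts and vessels, was at 36.0 and 29.8 CPM with oridonin, 31.4 and 43.6 CPM with vector and 29.2 CPM in WT. Oridonin and vector hearts overlapped, and the 95% interval of their log2 difference ran from -0.76 to 0.41. The fitted difference was -0.18 and turned to 0.059 without vector replicate 2. Per kilobase of exon, the ratio of Ccn2 to Ccn1 was 0.7003 and 0.597 in oridonin hearts, 1.29 and 1.498 in vector hearts and 3.65 in the WT heart. Ccn2 was therefore the more abundant of the pair in vector and WT hearts and the less abundant in oridonin hearts.

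**Figure D2:**
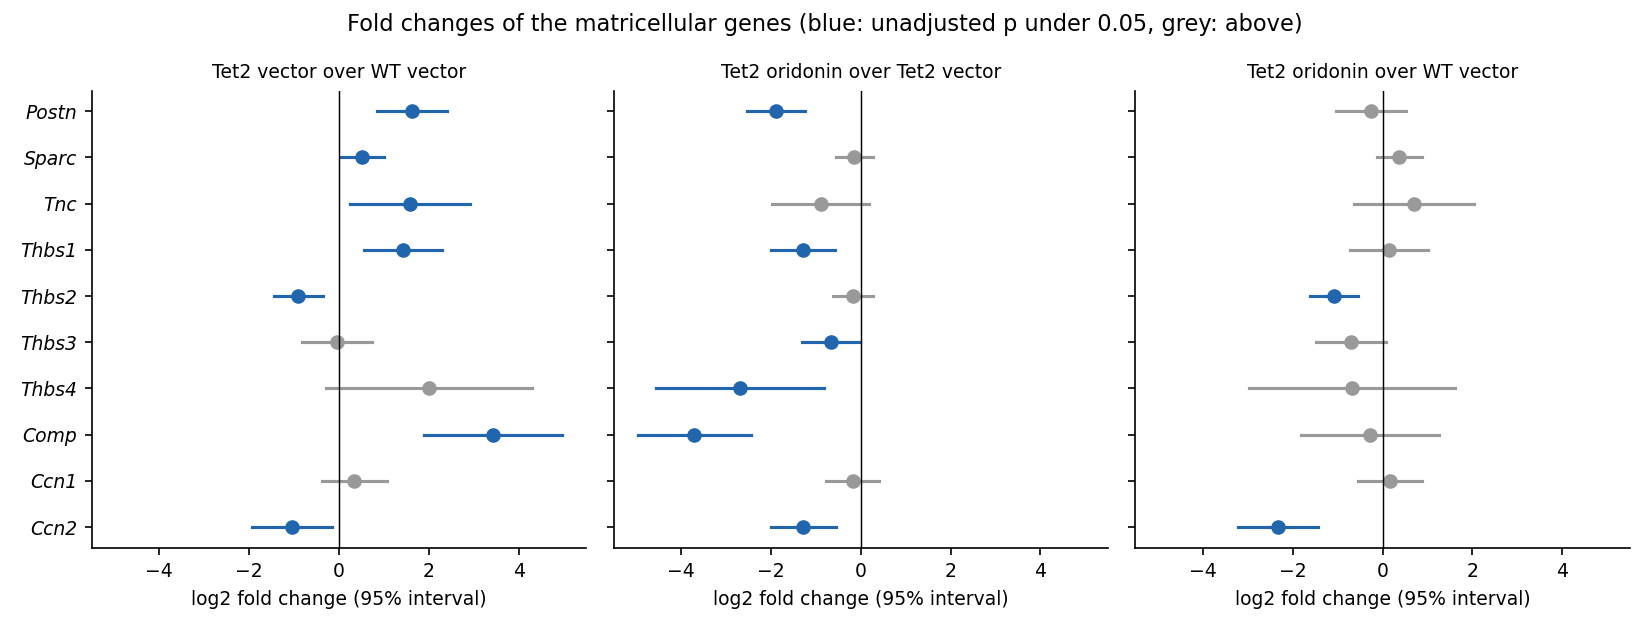
Log2 fold change of each gene in the 3 comparisons (horizontal axis; point: limma estimate, bar: 95% interval), blue where the unadjusted p is under 0.05. Comp is farthest from 0 in the first 2 panels, at 3.43 and -3.70, and Ccn2 in the third, at -2.33.

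In level per kilobase, Sparc was first in all 5 libraries, between 62.4 and 97.6 CPM per kb, and Tnc last, between 0.0964 and 0.336. Ccn1 and Ccn2 held ranks 2 and 3 in every library, with Ccn1 ahead in the oridonin hearts and Ccn2 ahead in the other 3. The middle of the order shifted. Comp was at rank 8 and 9 in the oridonin hearts, 5 and 6 in the vector hearts and 9 in WT, and Thbs4 at 6 in both oridonin hearts, 8 and 4 in the vector hearts and 6 in WT. Neighbours such as Thbs1 and Thbs4 in the oridonin hearts (1.25 and 1.43 against 1.29 and 1.44 CPM per kb) did not differ beyond their spread.

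Within the vector group the genes did not vary together. Thbs4, Comp, Postn, Ccn2, Ccn1, Tnc, Thbs2 and Thbs3 were higher in vector replicate 2, with replicate 1 minus replicate 2 at -2.55 log2 units for Thbs4 and -0.15 for Thbs3, while Thbs1 and Sparc were higher in replicate 1, by 0.66 and 0.26. In the oridonin pair the largest gap was 1.04 log2 units, for Comp at 48 and 23 counts. The vector replicates lay farther apart than the oridonin replicates for every gene but Thbs3, whose gaps were 0.22 log2 units with oridonin and -0.15 with vector.

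**Figure D3:**
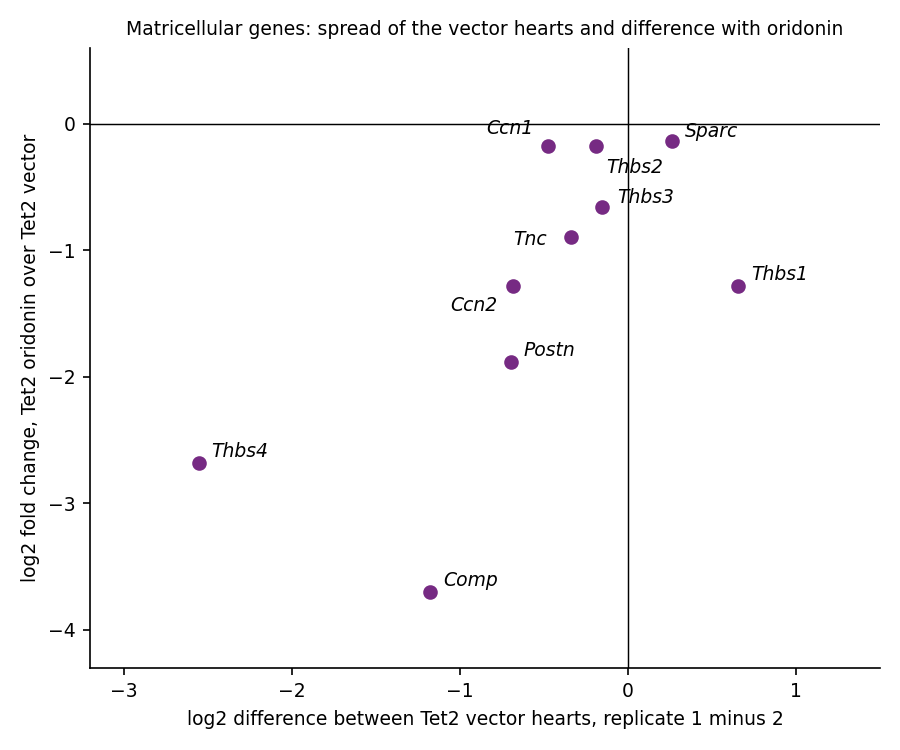
Log2 difference between the 2 vector hearts, replicate 1 minus replicate 2 (horizontal axis), against the log2 fold change of oridonin over vector (vertical axis), with 1 point per gene. Thbs4 has a gap of -2.55 between replicates beside a fold change of -2.68, while Postn has -0.69 beside -1.88.

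Markers of cells that make or carry these proteins are given beside them. Resident fibroblast markers (10 of 10 genes in the table, none at 0) summed to 1999 and 1833 CPM in oridonin hearts, 3017 and 3152 CPM in vector hearts and 2923 CPM in WT. Much of each sum was Gsn, at 1178 and 1005 CPM with oridonin, 1682 and 1691 CPM with vector and 1944 CPM in WT. Of the 10 markers, 8 were higher in vector hearts than in WT and 2 lower. Their median log2 fold change was -0.73 for oridonin over vector, with single markers between -1.001 and -0.24, and 0.45 for vector over WT, with single markers between -0.32 and 1.52. Comp, Thbs4, Postn, Thbs1 and Ccn2 lay below the lowest of these markers with oridonin, and Sparc, Ccn1 and Thbs2 above the highest. In bulk RNA, fewer fibroblasts and less message per fibroblast cannot be told apart, and the part of fibroblast number in these differences was not tested.

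Platelets carry thrombospondin 1 in their granules, and platelet and megakaryocyte markers stood beside the Thbs1 values. The list (9 of 10 genes in the table, Gp6 at 0 in oridonin replicate 2) summed to 18.3 and 20.3 CPM in oridonin hearts, 54.6 and 20.2 CPM in vector hearts and 11.5 CPM in WT. Vector replicate 1 had both the most Thbs1 and the most platelet transcripts, with Ppbp, a platelet chemokine, at 15.2 CPM against 2.74 CPM in vector replicate 2. The part of platelets in the Thbs1 values was not tested. Macrophage markers (12 of 12 genes in the table, none at 0) summed to 454 and 447 CPM with oridonin, 749 and 489 CPM with vector and 405 CPM in WT. Endocardium and valve markers (10 of 10 in the table) summed to 168 and 250 CPM with oridonin, 375 and 198 CPM with vector and 243 CPM in WT, with Hapln1 at 0 in vector replicate 2 and Dlk1 at 0 in oridonin replicate 2 and WT. Endothelial markers (10 of 10 in the table, none at 0) summed to 1728 and 1790.0 CPM with oridonin, 1568 and 1686 CPM with vector and 1637 CPM in WT, with a median log2 fold change of 0.12 for oridonin over vector and -0.06 for vector over WT. Smooth muscle and pericyte markers (10 of 10 in the table, Tagln at 0 in oridonin replicate 2) summed to 1362 and 1242 CPM with oridonin, 1851 and 1338 CPM with vector and 1729 CPM in WT, with medians of -0.15 and -0.12. Skeletal muscle and tendon markers (8 of 10 in the table) summed to 1515 and 1414 CPM with oridonin, 1279 and 1622 CPM with vector and 1205 CPM in WT. Of these, Tnmd had 26 counts in vector replicate 2 and at most 1 in any other library. Scx was at 4.38 and 3.22 CPM with oridonin, 2.19 and 8.35 CPM with vector and 7.53 CPM in WT. Mkx was highest in vector replicate 1, at 10 counts. The part of these cell types in the values of the 10 genes was not tested.

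Further matricellular genes and genes of related lists were counted in the same way, at an unadjusted p under 0.05. Over all genes tested, that threshold was passed by 1.93% lower and 0.668% higher for oridonin against vector, by 4.53% lower and 5.06% higher for vector against WT, and by 3.53% lower and 2.69% higher for oridonin against WT. The medians over all genes tested were -0.05, 0.005 and -0.06 on the log2 scale. Of 21 listed, 19 were in the table and 15 were tested. With oridonin, 12 of the 15 were lower than with vector, 5 of them past the threshold (Ccn5, Tgfbi, Fbln1, Ptn and Mdk; 1.93% of all genes) and 0 higher (0.668%), and the median log2 fold change was -0.44, beside -0.05 over all genes tested. Fbln1, a fibulin of the matrix, was at 53.2 and 58.1 CPM with oridonin, 114 and 131 CPM with vector and 74.0 CPM in WT. Ccn5, a CCN protein without the C-terminal domain of its relatives, stood at 8.75 and 7.82 CPM with oridonin, 13.5 and 28.6 CPM with vector and 10.5 CPM in WT. Each was highest in the 2 vector hearts. Against WT, the vector hearts had 3 of the 15 higher (Tgfbi, Fbln1 and Mdk; 5.06% of all genes) and 2 lower (Spock2 and Fbln2; 4.53%), with a median of 0.45 beside 0.005 over all genes tested. Mdk was at 0.957 and 0.823 CPM with oridonin, 1.67 and 3.72 CPM with vector and 0.667 CPM in WT. It reached 1 CPM in the 2 vector hearts alone, so the filter fixed its direction in both counts. Spp1, the osteopontin gene, had at most 0.587 CPM in any library and was not tested.

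Genes of activated fibroblasts and of tendon-like matrix were counted next, since Postn is classed with the first and Comp with the second. Of 21 listed genes of fibroblast activation 18 were tested. With oridonin 10 were lower than with vector (1.93% of all genes) and 0 higher, with a median log2 of -0.86 beside -0.05 over all genes. In vector hearts 8 were higher than in WT (5.06% of all genes) and 0 lower, with a median of 0.94 beside 0.005. Against WT, oridonin hearts had 3 higher (2.69% of all genes), Loxl2, Col1a1 and Col3a1, and 1 lower (3.53%), Lox. The median there was -0.11 beside -0.06. Col3a1 was at 75.2 and 89.8 CPM with oridonin, 180 and 163 CPM with vector and 50.4 CPM in WT. Col12a1, a collagen that bridges fibrils, was at 0.820 and 0.823 CPM with oridonin, 4.25 and 6.65 CPM with vector and 1.02 CPM in WT. Outside the vector hearts Col12a1 reached 1 CPM in WT alone, so it was tested only because of the vector hearts. Of 18 listed genes of tendon, cartilage and late scar fibroblasts only 7 were tested, so the counts cover the members that reached the filter. With oridonin 5 of the 7 were lower than with vector (Fmod, Cilp, Cilp2, Prg4 and Sfrp2; 1.93% of all genes) and 0 higher, with a median log2 of -1.90. In vector hearts 3 were higher than in WT (5.06% of all genes) and 0 lower. Fmod and Cilp2 reached 1 CPM in the vector hearts alone, so the filter fixed their direction in both counts, and the median of -1.90 includes them. Cilp was at 12.9 and 12.7 CPM with oridonin, 19.6 and 117 CPM with vector and 45.2 CPM in WT. Sfrp2, a secreted Wnt modulator, was at 1.16 and 1.58 CPM with oridonin, 6.82 and 9.72 CPM with vector and 0.816 CPM in WT. Both Col12a1 and Sfrp2 separated the vector hearts from the other 3 libraries.

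Receptors and TGF-beta signalling genes had medians nearer to 0 than the 10 genes for oridonin against vector and for vector against WT. For oridonin against WT their medians were -0.37 and -0.33, beside -0.27 for the 10 genes and -0.06 over all genes. There 4 receptors were lower (Itgb5, Lrp1, Egfr and Atf6; 3.53% of all genes) and 0 higher, and 0 TGF-beta genes passed either way. Among 21 receptors of matricellular proteins, all tested, 2 were lower with oridonin than with vector (Itga8 and Egfr; 1.93% of all genes) and 0 higher, with a median log2 of -0.07 beside -0.05 over all genes. Cd36, a receptor for thrombospondin 1 and a fatty acid transporter, was at 1772 and 1817 CPM with oridonin, 1463 and 1445 CPM with vector and 2278 CPM in WT. Of 15 genes for TGF-beta ligands, receptors, binding proteins and SMADs, 1 was lower with oridonin than with vector (Ltbp2; 1.93% of all genes) and 0 higher, with a median of -0.14, and 0 passed either way for vector against WT. Ltbp2, a matrix protein that binds microfibrils, was at 4.44 and 3.43 CPM with oridonin, 8.05 and 28.8 CPM with vector and 6.19 CPM in WT, with the same heart standing highest as for Thbs4.

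Ccn1 and Ccn2 are read as targets of YAP and TAZ. Of 19 other such genes tested, 2 were lower with oridonin than with vector (Rbms3 and Igfbp3; 1.93% of all genes) and 0 higher, with a median log2 of -0.13. For oridonin against WT 2 were lower (Amotl2 and Crim1; 3.53% of all genes) and 0 higher, with a median of -0.11. Of 16 components of the pathway, 0 passed in either direction with oridonin against vector, and 2 were lower in vector hearts than in WT (Yap1 and Tead1; 4.53% of all genes). Of 22 tested immediate early genes, the class to which Ccn1 and Ccn2 belong in growth factor stimulation, 1 was higher (Egr1; 0.668% of all genes) and 1 lower (Klf6; 1.93%) with oridonin than with vector, with a median of -0.09. Egr1 was at 21.3 and 18.5 CPM with oridonin, 14.2 and 11.3 CPM with vector and 5.80 CPM in WT, the reverse of the order of Ccn2.

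**Figure D4:**
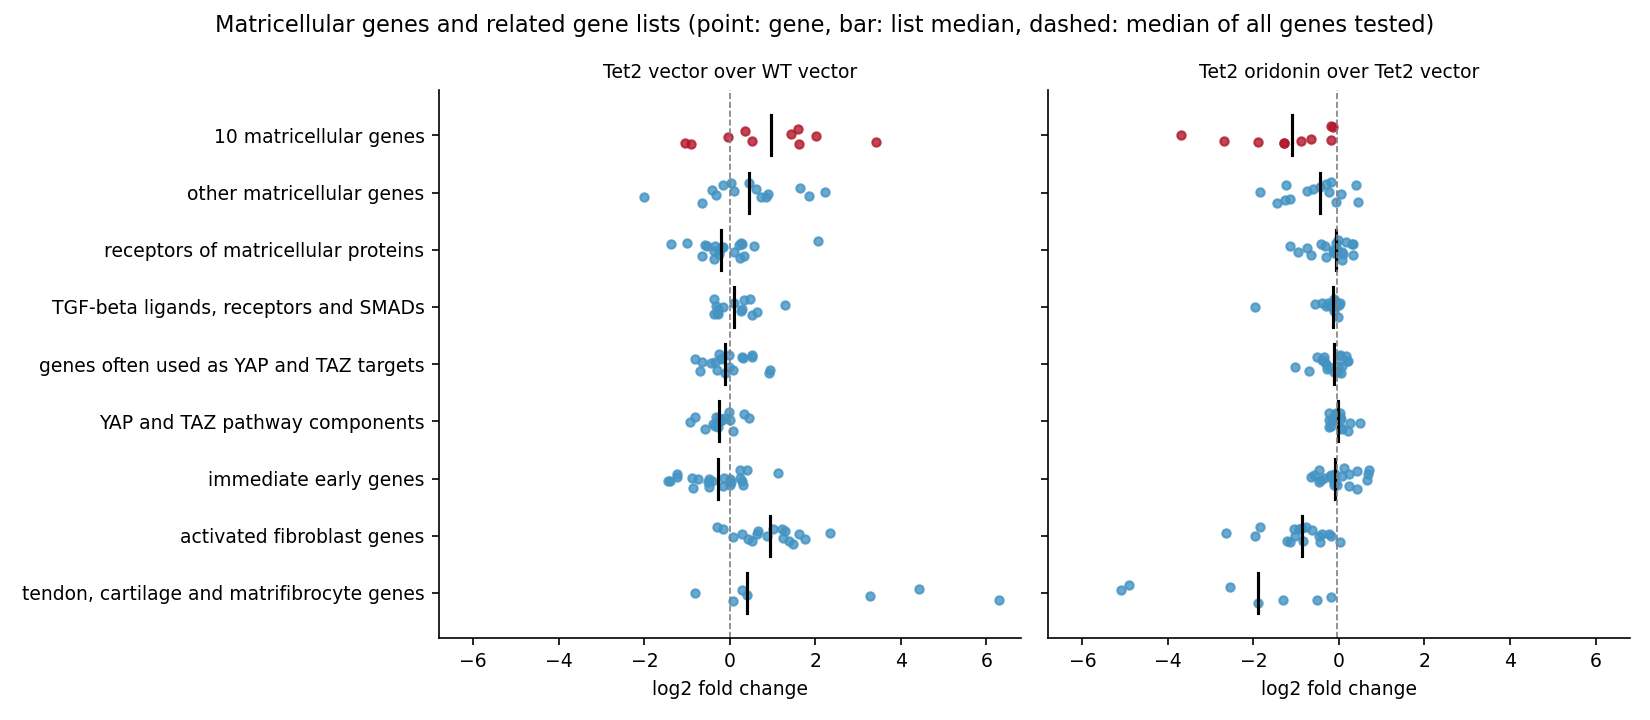
Log2 fold change of the 10 matricellular genes and of each tested gene of the related lists (horizontal axis), for vector over WT and oridonin over vector; bars are list medians and the dashed line is the median of all genes tested. With oridonin the medians of the 10 genes (-1.09), activated fibroblast genes (-0.86) and tendon-like genes (-1.90) lie left of the other lists. In the tendon-like list, Fmod and Cilp2 passed the filter through the vector hearts alone.

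Likeness of pattern was measured as the root mean square difference of centred log2 levels over the 5 libraries, among 857 genes that were not members and had a mean of at least 5 CPM and a standard deviation of at least 0.5. Among the 4 nearest to Postn were Wdfy1 (0.280), Aspn (0.335) and Ccn5 (0.352). Aspn, a small leucine-rich proteoglycan, was at 9.91 and 18.2 CPM with oridonin, 36.2 and 64.2 CPM with vector and 20.5 CPM in WT. The 4 nearest to Ccn2 were Nr4a1 (0.352), Errfi1 (0.378), Cyp26b1 (0.382) and Inmt (0.408). Nr4a1, an orphan nuclear receptor induced by stress signals, was at 8.82 and 7.62 CPM with oridonin, 8.30 and 20.3 CPM with vector and 30.8 CPM in WT. Among the 10 genes themselves, Sparc and Ccn1 were the closest pair (0.252) and Thbs2 and Comp the farthest apart (1.93).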

How the data were processed

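Heart RNA of 5 mice was sequenced after poly-A selection and NEBNext library preparation, per the labels' protocols, and the build was mm10, as the submitters' processing notes state. No source used here names an aligner, a counter or an annotation. Deposited by the authors were log2 values (log2 CPM) for 17818 genes, with 0 columns of no sample. Each Tet2 column holds 0.75 of its own log2 value and 0.25 of the other replicate's. With that undone, 99.92% to 99.94% of values gave whole counts (within 0.01), against at most 10.4% as deposited. Of the WT column's values 33.5% were whole. It was used as deposited, how it was made was not worked out, and its values may hold part of another library not analysed here.

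CPM is the recovered count over the library total in the 4 Tet2 libraries, and in WT the deposited log2 value put back on the linear scale, so WT counts are rounded approximations. Lengths are unions of exons in GENCODE M21 (GRCm38). Limma 3.58.1 (trend, robust) in R 4.3.3 was fitted to the unmixed log2 values of the 4 Tet2 libraries and the deposited values of WT, with group as the only term, for genes reaching 1 CPM in 2 or more libraries, with Benjamini-Hochberg adjustment, and was checked on simulated data. Nothing in the labels shows that libraries of 1 group come from separate animals, so the p-values speak only to the spread among these libraries, which may be technical.

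The 10 genes, the lists and the tests were chosen with earlier results of these data known. Named genes were the 10, the up to 4 genes of each list with the smallest unadjusted p for oridonin against vector, and 4 nearest genes each for Postn and Ccn2, of which 1 is not reported here. Mtx1, Spp1, Mdk, Spock2, Fbln2, Cilp and other genes behind counts of 5 or fewer were named after their values were seen. Alternatives covered the mix, scaling, filters, the added constant, voom, the robust option, single libraries, a replicate block and the Tet2 libraries alone.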

Additional observations from a re-analysis of the deposited data

How the results depend on the processing

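Of 407 fold changes of single matricellular genes recomputed under 15 alternatives, 371 kept direction and side of the threshold, 32 moved past an FDR of 0.05 and 4 reversed. Thbs3 in vector over WT turned to 0.046 with totals without mitochondrial genes, and ranged from -0.12 to 0.031 when single libraries were left out (positive without vector replicate 1). Ccn1 in oridonin over vector ranged from -0.41 to 0.059 (positive without vector replicate 2), and Comp in oridonin over WT from -0.80 to 0.25 (positive without oridonin replicate 2). None of these 4 had passed.

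Calls over all genes depended on the processing. On deposited values with the mix left in, limma called 2312 genes for vector against WT, 76 for oridonin against vector and 996 for oridonin against WT. In the last, 5 of the 10 matricellular genes were under an unadjusted p of 0.05, where 3981 of 12734 genes were. By its construction the mix narrows the gap between replicates. Leaving out 1 Tet2 library gave 2 to 107 called genes for vector against WT, 3 to 32 for oridonin against vector and 0 to 24 for oridonin against WT. Leaving out vector replicate 1 gave 3, 5 and 1 called genes in the 3 comparisons, vector replicate 2 gave 2, 3 and 0, oridonin replicate 1 gave 87, 13 and 10, and oridonin replicate 2 gave 107, 32 and 24. Those fits have 1 residual degree of freedom, and the lone sample of a group is assumed to vary like the others. The matricellular genes under an unadjusted p of 0.05 numbered 5 to 7, 4 to 5 and 2 to 3 in the 3 comparisons, where 7.37% to 17.5%, 1.55% to 6.93% and 3.94% to 11.1% of all genes were under it.

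The replicate numbers are not tied to shared animals or batches by the labels. Differences between replicate 1 and replicate 2 were weakly and inversely correlated between the Tet2 vector and Tet2 oridonin groups (r = -0.296 over 12734 genes). With the replicate number as a block, 10, 9 and 6 genes were called in the 3 comparisons, Postn and Comp among them for oridonin against vector (limma, adjusted p = 0.0274 each). With the crossed pairing as the block, chosen after seeing the data and fitted to the Tet2 libraries alone, 48 genes were called for oridonin against vector. With 2 libraries a group at most, intervals were wide. For Tnc in oridonin over vector the 95% interval ran from -1.98 to 0.20 on the log2 scale, and for Thbs3 in vector over WT from -0.82 to 0.73. Where an interval includes 0, as here, the data cannot tell the difference from 0.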
